A study of Mus musculus with 20 samples.

Results

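The synaptic vesicle and release machinery is described here by 31 genes, out of the 46517 genes of a table of estimated read counts from mouse white matter. The members were a fixed list of symbols, matched to the Ensembl gene identifiers of the table with the version removed, and all 31 were found once. They were sorted into 6 roles: SNARE proteins and their disassembly (5 genes), calcium sensors and complexins (7), vesicle membrane proteins (7), synapsins and Rab3a (3), active zone proteins (7) and endocytosis (2). No measured value of these libraries entered the list's rule, but the list was chosen with earlier results of these data known.

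Messenger RNA was sequenced from Zdhhc9 knockout and wild-type mice in corpus callosum, the tract that links the cerebral hemispheres, and in optic nerve, the tract that carries retinal ganglion cell axons. Callosum gave 11 libraries, 6 of knockout and 5 of wild-type mice, and nerve gave 9, 5 of knockout and 4 of wild-type mice. The labels say knockout and the series text says knockdown; the allele, promoter, strain, age and sex were not stated. Each library carries a number, and nothing states that libraries with one number in both tissues came from one animal, so p-values measure the spread between these samples.

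A neuron releases transmitter when a vesicle fuses with the membrane of its terminal. Syntaxin and SNAP-25 on the terminal membrane and synaptobrevin (VAMP) on the vesicle zip together, synaptotagmin senses calcium, complexin clamps and primes the complex, and the active zone scaffold holds vesicles near calcium channels. The proteins sit mostly in terminals, while their transcripts lie mostly in neuronal cell bodies; a white matter tract is made of axons and glia, so cell bodies of neurons are few there by anatomy.

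Total estimated counts per library ran from 15401130 to 26095622. Zdhhc9, the check of the labels, was lower in knockout callosum by a log2 fold change of -1.95 (SE 0.10, edgeR quasi-likelihood test with Benjamini-Hochberg adjusted p = 1.8e-06) and in knockout nerve by -1.70 (SE 0.13, adjusted p = 0.000544). The 10 oligodendrocyte markers summed to 34346 to 93972 CPM, that is estimated counts scaled to library size, over the 20 libraries. The 12 retinal markers summed to 28.6 to 40.6 CPM in 8 nerve libraries and to 117 in KO_ON_719856. The 18 neuron markers summed to 1974 to 7186 CPM in callosum and to 608 to 1002 in nerve, and all 18 were detected in every library. In a bulk sample, fewer cells of a type and less RNA per cell cannot be told apart.

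Promoter stretches of 2 members are shown because Syn1 carried the only RE1 core among the members and Ppfia3 led the nerve genotype comparison below. RE1 is the sequence bound by REST, a repressor of neuronal genes in other cells. Both stretches come from RefSeq windows on GRCm38.p6, lie before the gene's start and outside annotated exons, and are written 5′ to 3′ on the gene's strand. Syn1 lies at chrX:20921005-20921168 (minus strand) and Ppfia3 at chr7:45367020-45367232 (minus strand). Capitals mark matches to the RE1 core (CAGCACC and GGNCAG, with 2 free bases between them) or its left part (TCAGCACC), the CRE (TGACGTCA) and the NRF1 site (GCGCNNGCG), on either strand.
Syn1: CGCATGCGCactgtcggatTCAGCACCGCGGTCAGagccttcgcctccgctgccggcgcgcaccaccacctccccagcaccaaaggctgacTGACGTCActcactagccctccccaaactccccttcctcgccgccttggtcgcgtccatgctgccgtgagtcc
Ppfia3: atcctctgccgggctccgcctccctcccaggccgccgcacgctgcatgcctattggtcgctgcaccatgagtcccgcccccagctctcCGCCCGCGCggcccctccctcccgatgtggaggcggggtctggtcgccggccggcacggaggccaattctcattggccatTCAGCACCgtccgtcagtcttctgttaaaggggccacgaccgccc

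RefSeq windows from 250 bases before to 50 bases after the start were found for 25 of the 31 members; Snap25, Vamp2, Syt4, Doc2b, Syngr3 and Rims2 had none. The RE1 core was in 1 of the 25 (Syn1), and in 0.0666% of all 27025 genes with a window. Its left part was in Syn1, Unc13a and Ppfia3, 12% of the members against 1.85% of all genes. The full CRE was in Syn1 alone, 4% against 2.03%. A GC box (GGGCGG) was in 80% of the members against 38.2% of all genes, an NRF1 site in 44% against 13.5%, and a TATA box (TATAAA) in 4% (Sv2b) against 15.7%. The members' windows had a median GC content of 66% against 52.8% for all genes, which moves with those GC-rich letters. A match is a description of letters. These motifs, and 4 variants of them in the tables (a stricter RE1 core, in 0% of the members, among them), were picked after the values had been seen, as were the 2 genes shown.

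**Figure D1:**
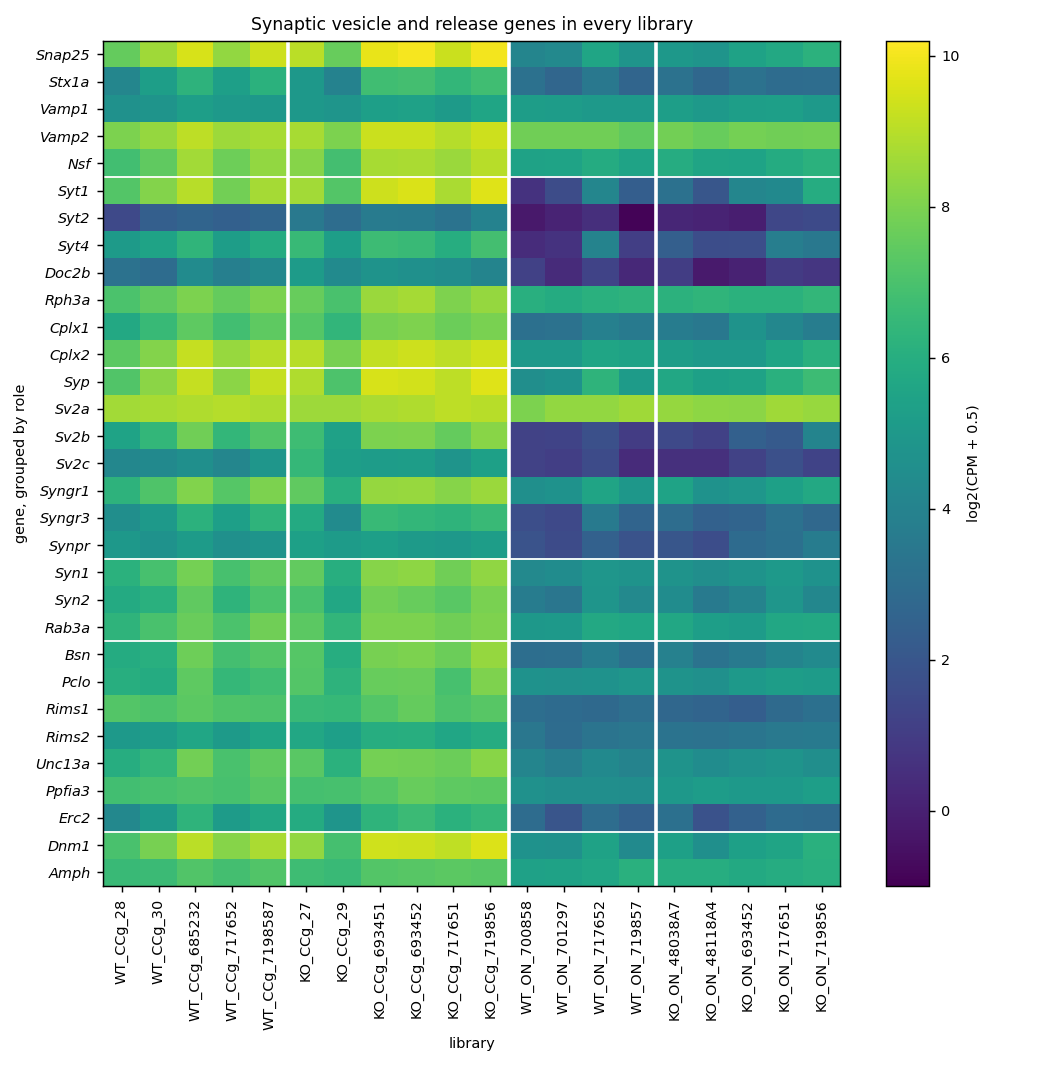
Heat map of the 31 members (rows, grouped by role) in the 20 libraries (columns, grouped by genotype and tissue), as log2(CPM + 0.5). Most rows are bright in callosum and dark in nerve; Vamp1 (24.5 to 47.5 CPM) and Sv2a (253 to 543 CPM) span little in all 20.

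How abundant each member is was read per kilobase of its longest coding transcript. In wild-type callosum Snap25, the SNARE of the terminal membrane, led at 215 CPM per kilobase (SD 107, n = 5), followed by Vamp2, the main synaptobrevin of the forebrain, at 176 (SD 49.4) and Syp (synaptophysin, a vesicle membrane protein) at 151 (SD 78.6). Those neighbours overlapped within their spread. The lowest were Sv2c at 2.35 (SD 0.53) and Syt2, a fast calcium sensor, at 0.67 (SD 0.20). In wild-type nerve the order changed: Vamp2 led at 93.7 (SD 8.41, n = 4), Sv2a, a vesicle glycoprotein, followed at 75.7 (SD 12.7), and Snap25 ranked 7 at 13.0 (SD 6.50). Syt1 moved from rank 8 to rank 21. Syt2 stayed last, at 0.069 (SD 0.054).

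The members were lower in nerve than in callosum in both genotypes. In wild type, 28 of the 31 were called lower (edgeR, adjusted p under 0.05 and absolute log2 fold change of at least 1) and 0 higher, beside 13.2% of all 16440 genes called lower. In knockout 29 of the 31 were lower, beside 15.2%. The median log2 fold change was -3.05 in wild type and -3.19 in knockout, against -0.03 and 0.00 over all genes tested. The drop was not particular to the members. The 18 neuron markers had medians of -3.44 in wild type and -3.47 in knockout, with 15 and 16 called lower. In wild type the medians were -5.29 for cortical excitatory, -4.42 for striatal projection and -4.26 for interneuron markers. They were 0.10 for oligodendrocyte, 0.07 for oligodendrocyte precursor and 0.40 for retinal markers. Other lists were higher in wild-type nerve, with medians of 2.43 for vascular and meningeal, 1.14 for microglia and 0.60 for astrocyte markers. Every wild-type nerve library lay below every wild-type callosum library for 30 members, beside 20.4% of all genes, and the same held in knockout for 29, beside 20.2%. Vamp1 overlapped in both genotypes and Sv2a in knockout. The 2 tissue contrasts share no library.

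Among the SNARE genes, Snap25 stood at 189, 383, 729, 329 and 647 CPM in the wild-type callosum libraries and at 16.6, 18.8, 46.8 and 27.6 in the wild-type nerve libraries. Its groups did not overlap, and the log2 fold change was -4.05 (SE 0.52, edgeR adjusted p = 1.92e-06). Vamp2 was at 256, 342, 550, 373 and 424 CPM in wild-type callosum and at 216, 215, 217 and 179 in nerve. It did not overlap either, yet its fold change of -0.91 (SE 0.22, adjusted p = 0.00174) fell short of the fold threshold in wild type, while it reached -1.23 (SE 0.20) in knockout. Without WT_CCg_28 the wild-type value was -1.03 and was called. Vamp1, the synaptobrevin of brainstem and spinal cord, was at 24.5, 27.4, 37.8, 31.6 and 31.2 CPM in wild-type callosum and at 36.6, 36.4, 32.6 and 32.4 in nerve. Those ranges overlapped, with a log2 fold change of 0.18 (SE 0.14, edgeR adjusted p = 0.311) in wild type and -0.01 (SE 0.13, adjusted p = 0.931) in knockout.

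As a ratio within a library, Vamp1 to Vamp2 was -3.62 on the log2 scale in wild-type callosum (SD 0.19, n = 5) and -2.56 in wild-type nerve (SD 0.11, n = 4), with -3.74 (SD 0.29, n = 6) and -2.57 (SD 0.11, n = 5) in knockout. Nsf, the ATPase that takes spent SNARE complexes apart, ran from 110 to 394 CPM in wild-type callosum and from 43.6 to 58.1 in nerve. Nsf was at -2.35 (SE 0.36) in wild type. Stx1a, the syntaxin of the terminal membrane, ran from 17.3 to 74.5 CPM in wild-type callosum and from 5.74 to 10.8 in nerve.

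Of the calcium sensors and complexins, all 7 were called lower in both genotypes. Syt1, the main synaptotagmin of forebrain neurons, was at 147, 274, 505, 227 and 412 CPM in wild-type callosum and at 1.04, 2.55, 17.0 and 4.65 in nerve. WT_ON_717652 was the highest of its group and still far below callosum. The log2 fold change was -5.64 (SE 0.88, edgeR adjusted p = 1.87e-05) in wild type and -4.61 (SE 0.74) in knockout. Syt4, a synaptotagmin that does not bind calcium in the usual way, was at -3.42 (SE 0.72) in wild type and at -5.46 without WT_ON_717652. Doc2b, a calcium sensor with high affinity, was at -3.41 (SE 0.41), and Cplx1, a complexin, at -3.48 (SE 0.39). Cplx2 went from 164 to 594 CPM in wild-type callosum to 31.5 to 47.0 in nerve. Rph3a (rabphilin, an effector of Rab3) went from 130 to 257 CPM to 58.8 to 75.7, a smaller gap than the complexins had but with no overlap. Both complexins were called lower, and the Cplx1 to Cplx2 log2 ratio was -1.65 (SD 0.10) in wild-type callosum and -1.81 (SD 0.07) in nerve.

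Vesicle membrane genes split. Sv2b was at -5.83 (SE 0.74, edgeR adjusted p = 1.59e-06) and Sv2c at -3.66 (SE 0.38) in wild type, whereas Sv2a was at -0.44 (SE 0.13, adjusted p = 0.00727), under the fold threshold. In CPM, Sv2a was at 397, 420, 468, 489 and 450 in wild-type callosum and at 253, 337, 336 and 386 in nerve. The Sv2b to Sv2a log2 ratio was -2.14 (SD 0.79) in wild-type callosum and -7.03 (SD 0.42) in nerve. Syp went from 141, 300, 603, 309 and 600 CPM to 22.8, 25.4, 77.2 and 35.0, again with no overlap. The synaptogyrins, membrane proteins of the vesicle, followed: Syngr1 ran from 75.1 to 268 CPM in wild-type callosum and from 23.1 to 46.5 in nerve, and Syngr3 from 22.5 to 77.6 and from 2.30 to 11.5. Synpr (synaptoporin) ran from 23.8 to 35.4 CPM and from 2.42 to 5.02.

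Synapsins tether vesicles to each other and to actin, and Rab3a is the GTPase of vesicle docking. Syn1, whose promoter is printed above, was at 70.7, 121, 230, 121 and 179 CPM in wild-type callosum and at 19.0 to 29.4 in nerve. Syn2 ran from 56.5 to 176 CPM and from 10.03 to 28.5, and Rab3a from 78.3 to 219 and from 30.9 to 53.5. All 3 of this role were called lower in both genotypes, from -1.87 to -2.59 in wild type. The Syn2 to Syn1 log2 ratio was -0.52 (SD 0.20) in callosum and -0.54 (SD 0.41) in nerve.

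The 7 active zone members were all called lower in both genotypes, from -1.89 to -4.29 in wild type. Rims1, a scaffold that docks and primes vesicles, was at -4.29 (SE 0.21, edgeR adjusted p = 3.28e-12) and Bsn (bassoon) at -3.70 (SE 0.45). Bsn was at 58.1, 65.8, 210, 114 and 145 CPM in wild-type callosum and at 7.67, 7.90, 12.6 and 8.39 in nerve, with no overlap. Unc13a ran from 62.8 to 224 CPM in wild-type callosum and from 13.2 to 19.6 in nerve, and Rims2, the relative of Rims1, from 32.2 to 48.4 and from 7.23 to 10.4. Pclo ran from 59.4 to 169 CPM and from 24.8 to 28.8, and Erc2 (an ELKS scaffold) from 18.4 to 77.9 and from 3.39 to 7.41. Of the endocytosis genes, Dnm1, the dynamin of synaptic vesicle recycling, was at -3.50 (SE 0.50) and Amph, its partner amphiphysin, at -1.23 (SE 0.18). Dnm1 was at 125, 242, 530, 285 and 434 CPM in wild-type callosum and at 25.7, 24.8, 43.9 and 20.1 in nerve. Leaving out KO_ON_719856, the library highest in retinal markers, left 29 members called lower in knockout nerve.

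**Figure D2:**
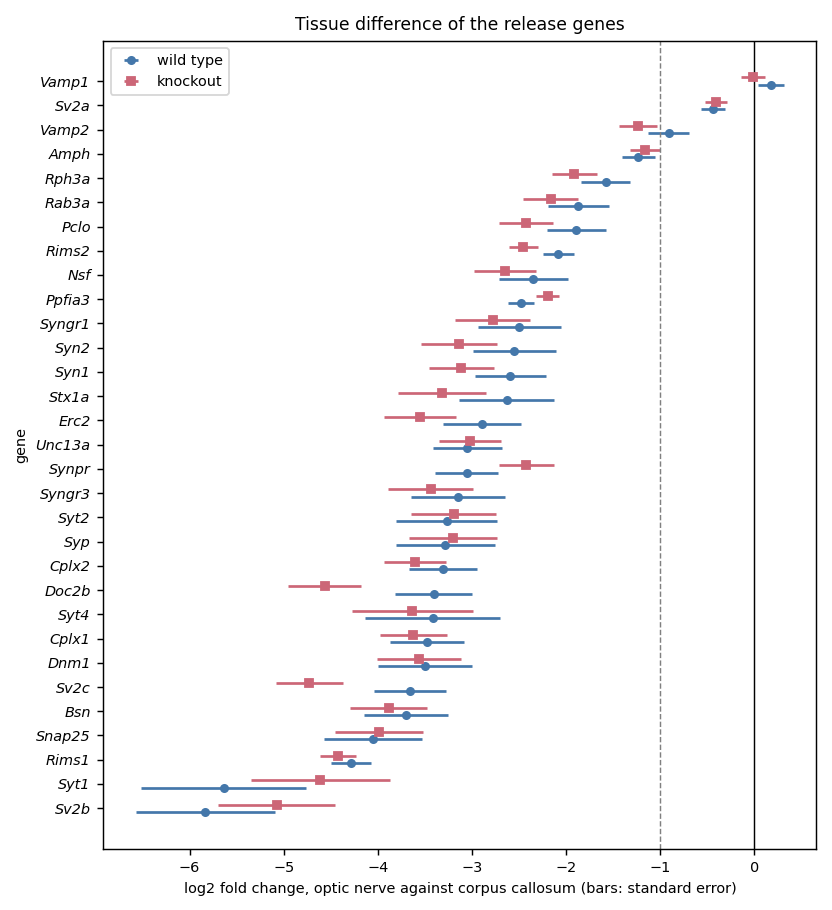
Log2 fold change of each member, optic nerve against corpus callosum (horizontal axis), with its standard error, in wild type (circles) and knockout (squares); the dashed line marks -1. In wild type the values run from -5.83 (Sv2b) to 0.18 (Vamp1).

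The rest of the pathway was taken as 66 other release genes, from SNARE relatives to transporters. In wild type 34 of 65 tested were called, 30 lower and 4 higher, with a median of -0.87; in knockout it was 36 of 65 with a median of -1.11. Of all 16440 genes, 26.2% were called in wild type and 30.1% in knockout, in either direction. Syt6 was at -4.45 (SE 0.35) and Stxbp5l at -4.32 (SE 0.48) in wild type. Unc13c, a Munc13 relative, rose by 2.79 (SE 0.23), from 27.02 CPM in wild-type callosum to 188 in nerve, and Rab3d, a relative of Rab3a, rose by 1.99 (SE 0.18).

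Within callosum most members varied between libraries. Over the 11 libraries of both genotypes the highest was at least 3 times the lowest for 23 members, and the median ratio was 4.71. The share of all genes with such a range is not given here. Within one genotype this held for 20 members in the 6 knockout libraries (median ratio 3.21) and for 16 in the 5 wild-type libraries (3.12). Over all 11 it was under 2 for 5 members: Vamp1, Sv2a, Synpr, Ppfia3 and Amph. Snap25 was at 523, 191, 902, 1069, 624 and 1013 CPM in the knockout libraries KO_CCg_27, KO_CCg_29, KO_CCg_693451, KO_CCg_693452, KO_CCg_717651 and KO_CCg_719856. WT_CCg_28 was lowest for 15 members and KO_CCg_29 for 12, and KO_CCg_719856 was highest for 18 and KO_CCg_693452 for 8. The summed neuron markers were 1974 CPM in WT_CCg_28, 2202 in KO_CCg_29 and 7186 in KO_CCg_719856, their lowest, next lowest and highest callosum values.

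**Figure D3:**
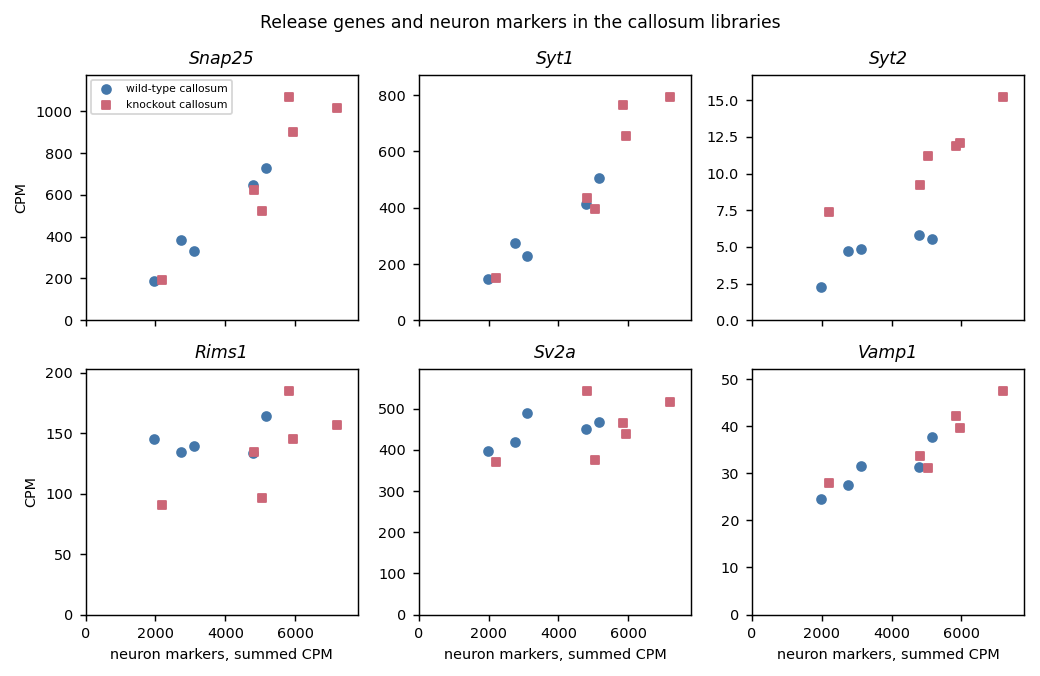
CPM of 6 members (vertical axes) against the summed CPM of 18 neuron markers (horizontal axes) in the 5 wild-type (circles) and 6 knockout (squares) callosum libraries. Snap25 and Syt1 climb with the markers, Sv2a and Rims1 are flatter, and the 6 knockout Syt2 points (7.40 to 15.2) lie above the wild-type points (2.26 to 5.83).

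Whether the knockout changes release genes in callosum was asked of the 11 callosum libraries. By edgeR, 0 of the 31 members were called, beside 0.0387% of all genes, and 8 had an unadjusted p under 0.05, beside 11.7% of all genes. DESeq2 called 2, Syt2 and Sv2c, beside 1.13% of all genes, and gave 11 members an unadjusted p under 0.05 beside 13.2%. The fold change was above 0 for 30 of the 31, beside 47.5% of all genes, with a median of 0.57 against -0.01. Rims1 was the exception, at -0.10. The 66 other release genes had 0 of 65 called, 8 with an unadjusted p under 0.05, and a median of 0.41; Syt6 was at 0.85 (SE 0.25) and Syngr2 at -0.43 (SE 0.15).

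Syt2 (chr1:134646677-134762593, mm10) was at 11.2, 7.40, 12.1, 11.9, 9.23 and 15.2 CPM in knockout callosum and at 2.26, 4.72, 5.54, 4.87 and 5.83 in wild type. All 6 knockout libraries lay above all 5 wild-type libraries; it was the only member of which that held, beside 0.2% of all genes. The log2 fold change was 1.24 (SE 0.24, edgeR adjusted p = 0.139; DESeq2 adjusted p = 0.000281). Leaving out each library in turn gave 1.08 to 1.36 with edgeR adjusted p from 0.0641 to 0.426.

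Sv2c, a vesicle glycoprotein found in basal ganglia, was at 87.7, 37.9, 36.1, 36.8, 27.4 and 40.5 CPM in knockout and at 17.9, 19.4, 23.6, 17.1 and 28.7 in wild type. KO_CCg_27 was far above the rest, and the lowest knockout library overlapped the highest wild-type one. The log2 fold change was 1.05 (SE 0.28, edgeR adjusted p = 0.257; DESeq2 adjusted p = 0.0215). The 12 striatal projection neuron markers summed to 677 to 1765 CPM in knockout and 392 to 856 in wild type, highest in KO_CCg_27 as well; their part in the Sv2c value was not tested.

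The other members with the smallest p had overlapping groups. Doc2b was at 0.78 (SE 0.27), Pclo (piccolo, an active zone scaffold) at 0.76 (SE 0.33) and Cplx1 at 0.72 (SE 0.33). Syt4 was at 0.71 (SE 0.29), Rims2 at 0.45 (SE 0.15) and Synpr, a synaptophysin relative, at 0.33 (SE 0.11). Their edgeR adjusted p ran from 0.357 to 0.426.

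Neuron markers moved with these values: 17 of 18 had a fold change above 0, with a median of 0.62. Striatal projection neuron markers had 12 of 12 above 0 and a median of 0.83. All 12 had an edgeR unadjusted p under 0.05, beside 4 of the 18 neuron markers and 11.7% of all genes. Medians were 0.57 for cortical excitatory and 0.44 for interneuron markers. By contrast 10 of 10 oligodendrocyte markers were below 0, with a median of -0.50. The covariate that follows held the 18 neuron markers and not the striatal list. With the neuron marker list entered as a covariate (its mean log2 CPM), the members' median log2 fold change was -0.06, 12 were above 0 and 19 below, 0 were called by edgeR, and 7 had an unadjusted p under 0.05 beside 7.56% of all genes. Syt2 was then at 0.90 (SE 0.15, edgeR adjusted p = 0.109), Sv2c at 0.93 (SE 0.29) and Doc2b at 0.59 (SE 0.25). Syp, synaptophysin, was at -0.38 (edgeR unadjusted p = 0.00275), against 0.51 without the covariate, and Nsf at -0.19 (edgeR unadjusted p = 0.0492).

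**Figure D4:**
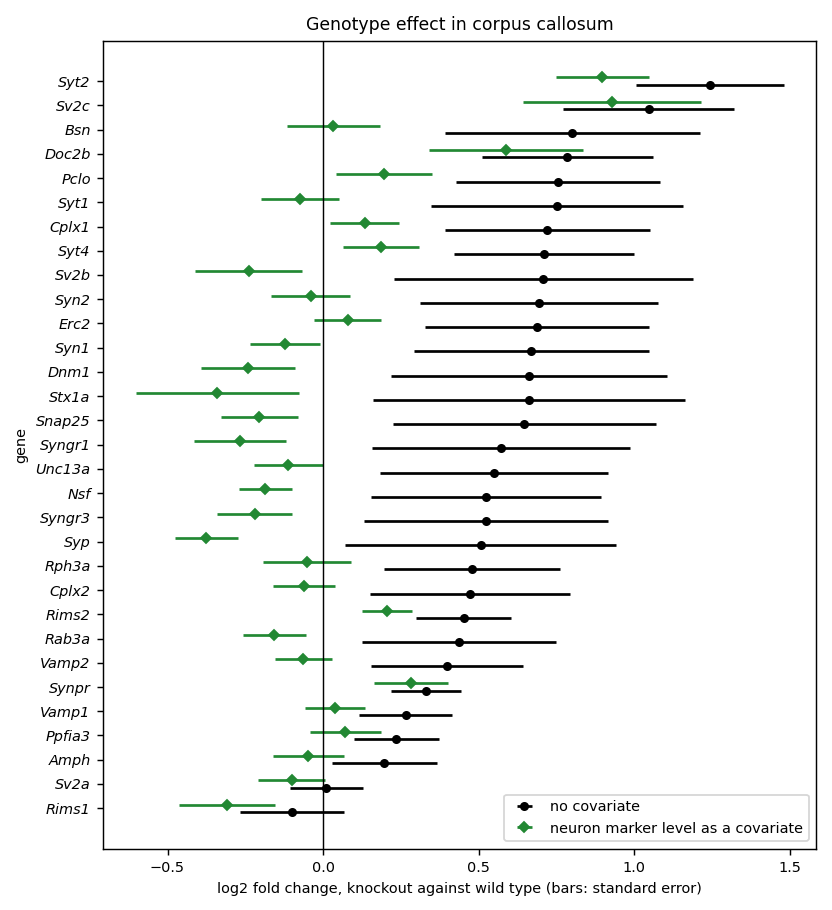
Log2 fold change of each member, knockout against wild-type callosum (horizontal axis), with its standard error, unadjusted (circles) and with neuron markers as covariate (diamonds). Most members move to near 0 with the covariate. Sv2c (0.93), Syt2 (0.90) and Doc2b (0.59) are then highest.

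Callosum numbers come as 2 digits (KO_CCg_27, KO_CCg_29, WT_CCg_28 and WT_CCg_30) or as longer numbers, and the labels do not say what the format stands for. Syt2 was at 1.44 within the 2-digit libraries and 1.14 within the others, Sv2c at 1.80 and 0.59, and Doc2b at 1.82 and 0.32. The count of members with an unadjusted p under 0.05, 8 in all 11 libraries, was 6 in the 2-digit libraries (6.47% of all genes), 20 in the longer numbers (9.17%) and 16 with the format as a covariate (17.5%). Of the 6 in the 2-digit libraries, Rims1 was lower in knockout, at -0.54, against 0.07 in the longer numbers. The count also turned on single libraries. It was 27 without KO_CCg_29 (22.8% of all genes), 17 without WT_CCg_685232 (19.6%), and 5 without any one of KO_CCg_693451, KO_CCg_693452, KO_CCg_719856, WT_CCg_28, WT_CCg_30 and WT_CCg_717652 (6.6% to 8.47%).

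In optic nerve edgeR called 0 of the 31 members, beside 0.0129% of all genes, and 5 had an unadjusted p under 0.05, beside 5.48%. DESeq2 called 2, Ppfia3 and Unc13a, beside 0.225% of all genes, and gave 7 an unadjusted p under 0.05 beside 6.52%. The median log2 fold change was 0.22, and 27 of 31 were above 0, beside 52.8% of all genes. Of the other release genes 0 of 63 were called, with 5 at an unadjusted p under 0.05 and a median of 0.08; Sypl was at -0.37 (SE 0.13) and Vamp3 at -0.26 (SE 0.09).

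Ppfia3, liprin-alpha 3 (chr7:45339122-45367019, mm10), a scaffold that organises the active zone, was at 30.5, 35.5, 31.7, 31.7 and 37.9 CPM in knockout nerve and at 25.0, 22.6, 22.7 and 22.1 in wild type. The groups did not overlap, which held for 2 members beside 1.12% of all genes. The log2 fold change was 0.52 (SE 0.09, edgeR adjusted p = 0.357; DESeq2 adjusted p = 0.000479). Unc13a, the Munc13 protein that primes vesicles (chr8:71624417-71671757, mm10), was the other, at 26.2, 21.6, 24.9, 26.9 and 22.7 CPM in knockout and 16.4, 13.2, 19.6 and 15.8 in wild type. Its log2 fold change was 0.57 (SE 0.12, edgeR adjusted p = 0.562; DESeq2 adjusted p = 0.0187). With the neuron markers as a covariate Ppfia3 was at 0.53 (SE 0.10) and Unc13a at 0.48 (SE 0.11). The members' median was then 0.08, with 21 above 0 and 3 at an unadjusted p under 0.05, beside 5.88% of all genes. In callosum Ppfia3 was between 117 and 190 CPM in knockout, overlapping the wild-type libraries (113 to 155).

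The other named nerve members had overlapping groups. Syt1 was at 8.66, 3.55, 17.4, 19.3 and 60.5 CPM in knockout and at 1.04, 2.55, 17.0 and 4.65 in wild type, a log2 fold change of 1.77 (SE 0.85, edgeR adjusted p = 0.845). Sv2b was at 1.47 (SE 0.58), Synpr at 0.97 (SE 0.42) and Bsn at 0.61 (SE 0.22), with the same adjusted p. With the neuron markers as a covariate Syt1 was at 0.91, Sv2b at 0.79, Synpr at 0.39 and Bsn at 0.35. KO_ON_719856 was the highest nerve library for 16 members, and without it 4 members had an unadjusted p under 0.05, beside 4.19% of all genes. Syt1 was then at 0.96, Sv2b at 0.67 and Synpr at 0.64; the part of retinal RNA was not tested. WT_ON_717652 was highest for 4 members, and its 10 interneuron markers summed to 115 CPM against 18.2 to 83.6 in the other 8. Without it Syt1 was at 2.97 and 15 members had an unadjusted p under 0.05, beside 5.9% of all genes. Leaving out WT_ON_700858 (5.77% of all genes) or WT_ON_701297 (3.52%) left 2, leaving out KO_ON_48118A4 gave 10 (4.43%), and leaving out KO_ON_48038A7 gave 8 (3.91%). Without both of those lettered numbers 11 members had an unadjusted p under 0.05, beside 3.6% of all genes, and Syt1 was at 2.34.

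**Figure D5:**
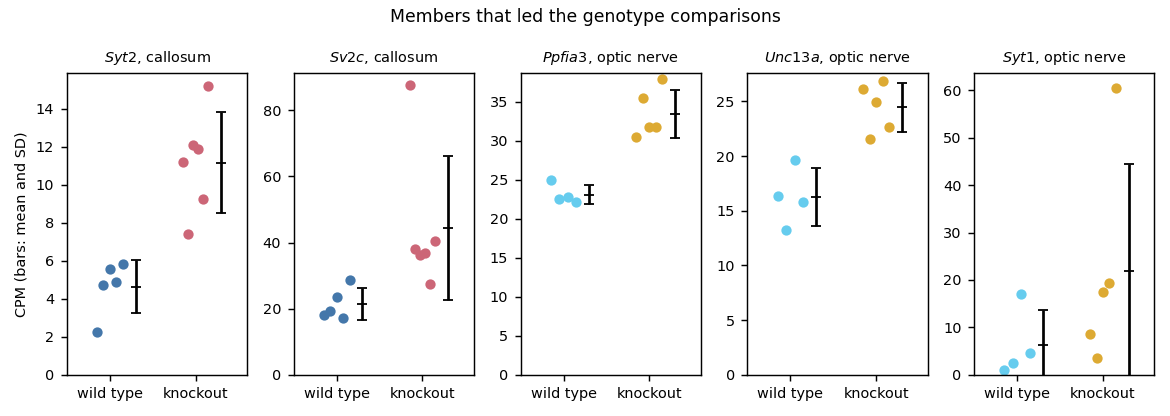
CPM per library (vertical axes) for Syt2 and Sv2c in callosum and Ppfia3, Unc13a and Syt1 in optic nerve, by genotype; points are libraries and black bars the mean and SD. The genotypes separate for Syt2, Ppfia3 and Unc13a and overlap for Sv2c and Syt1.

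Whether the genotype effect differs between the tissues was tested as the difference of both effects, callosum minus nerve. By edgeR 0 of the 31 members were called, beside 0% of all 16440 genes, and 2 had an unadjusted p under 0.05, beside 6.83%; DESeq2 also called 0 and gave 2. The difference was 1.07 for Sv2c (SE 0.49) and 1.15 for Doc2b (SE 0.53), both at edgeR adjusted p = 0.725. Rims2 was at 0.37 (SE 0.21) and Ppfia3 at -0.29 (SE 0.17), both at adjusted p = 0.745. Doc2b was at 0.385 to 1.86 CPM in nerve, so its nerve value rests on few counts. Of the other release genes 0 of 65 were called and 4 had an unadjusted p under 0.05.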

How the data were processed

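RNA was sequenced in 20 libraries with a stranded mRNA kit, per the labels' protocols. The deposited table holds estimated counts per gene that the authors made with kallisto, which its title names. Version, annotation and strand setting were not stated, and mm10 is the build in the submitters' processing notes. Here counts were rounded; filterByExpr kept genes (10 counts as minimum, 15 in total), and TMM factors scaled the libraries in edgeR 4.0.16 (R 4.3.3). Each tissue was fitted apart for genotype by quasi-likelihood. The SE of an edgeR value was computed from its test, as the absolute log2 fold change over the square root of the F statistic. One fit over the 20 libraries gave the tissue contrasts and the difference of effects. P-values were adjusted by Benjamini-Hochberg over all genes tested, and calls need adjusted p under 0.05, for tissue also a log2 fold change of 1 or more in size. CPM use TMM factors over all 20 libraries; 0.5 was added before log ratios. Lengths and positions come from GENCODE M21, by identifier without version. Alternatives were DESeq2 1.42.0, its size factors, no or a stricter filter (1 CPM), covariates, subsets, a block on the replicate number, and each library left out in turn. The fit was run on simulated counts with known changes, drawn independently for each gene. A shift shared by many genes between libraries was not simulated. The 31 members and the lists were chosen with earlier results of these data known. Members were named with fold changes by a rule: the 8 (callosum) or 6 (nerve) smallest p, 4 for the difference of effects, and in the wild-type tissue comparison the 10 largest called and those not called. Amph, Ppfia3, Nsf, Synpr and others named beyond it were chosen after their values were seen. Totals of estimated counts per library are 15401130 to 26095622, and 2 members had under 10 counts in some library, which limits Syt2 in nerve. Motifs were searched on both strands in RefSeq windows of GRCm38.p6.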

Additional observations from a re-analysis of the deposited data

Results flagged for a closer look

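Each member was checked in each of the 4 groups for a library far from the others, by the gap to its nearest neighbour over the range of the group; 7 of 124 groups of libraries were past the 95% critical value, and chance alone flags about 5% of groups. WT_ON_717652 was the highest for Nsf at 58.1 CPM (nearest 45.3), for Syt4 at 15.7 (nearest 1.61) and for Bsn at 12.6 (nearest 8.39). KO_ON_719856 was the highest for Syt1 at 60.5 CPM (nearest 19.3) and for Sv2b at 15.9 (nearest 4.90). WT_ON_719857 was the lowest for Vamp2 at 178.8 CPM, with the next at 215.3. KO_CCg_27 was the highest for Sv2c at 87.7 CPM, with the next at 40.5.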

How the results depend on the processing

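The DESeq2 test called 2 members in callosum and 2 in optic nerve, where edgeR called 0; the cause was not tested. No other alternative moved the number of members called in any of the 5 comparisons by over 1.5 times. The knockout tissue value of Vamp1, -0.01, ranged from -0.097 to 0.042 with each library left out in turn, and was above 0 without KO_CCg_693451, KO_CCg_693452, KO_CCg_719856, KO_ON_48118A4 or KO_ON_719856. Sample numbers that occur in both tissues had correlations of deviations of 0.02, -0.15, 0.13 and -0.05, and 1 of the 4 pairs correlated best with its own number. Correlations between different tissues cannot show whether a shared number means one animal. The main fits did not pair the samples. With the sample number as a replicate block, the wild-type tissue contrast rested on 1 pair, that of WT_ON_717652, and the knockout contrast on the other pairs. In knockout 29 members were then lower, beside 13.9% of all genes. The wild-type values ran from -4.89 (Sv2b) to 0.05 (Vamp1). With 1 pair they cannot show whether the drop holds over the wild-type libraries. In that wild-type pair Syt4 was at -1.24, Syt2 at -2.38 and Syn2 at -1.43, against -3.42, -3.27 and -2.55 in the main fit. Its nerve library, WT_ON_717652, was flagged above for Syt4, Nsf and Bsn. For the difference of effects the block sets the knockout pairs against that 1 wild-type pair. The members' median was then 0.81, against 0.22 in the main fit. With 1 wild-type pair it cannot show whether the genotype effect differs between the tissues. A filter of 1 CPM left 30 members in nerve, without Syt2.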
